A study of Mus musculus with 11 samples.

Results

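The 38 genes described here encode the digestive machinery of the lysosome, and their transcripts were compared between macrophages (macs) of 5 mouse tissues that carried or lacked the transcription factor Zeb2. They were listed by symbol, and all 38 were found among the 27998 genes of the count tables. They comprise 9 cysteine cathepsins and legumain, 3 other proteases, 8 glycosidases, 7 lipid hydrolases, activators and transporters, 6 membrane proteins and 5 genes of the V-ATPase. Lysosomes are the acidic organelles in which macs break down what they engulf. Their hydrolases are made as precursors, sorted to the organelle and activated there at low pH, which the V-ATPase maintains by pumping protons across the membrane. Many genes of this kind share a CACGTG-type motif near their start, which is bound by TFEB and related factors, and the set is known for high levels in tissue-resident macs.

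Single-cell RNA-seq with 3′ unique molecular identifiers (UMIs) was available for 11 libraries, 1 for each tissue and genotype. They held alveolar macs (AMs) from lung, Kupffer cells (KCs) from liver, splenic macs (SMs), colonic macs (CMs) and microglia from brain, each from Zeb2fl/fl mice (WT) and from mice labelled Fcgr1-crexZeb2fl/fl (Zeb2KO), with an additional WT KC library from Nr1h3fl/fl mice. According to the study's methods, Clec4f-cre was used in liver and Itgax-cre in lung, which act in KCs and in CD11c-expressing cells, in place of the Fcgr1-cre of the labels, which acts in CD64-expressing cells. In the study's reporter mice, Fcgr1-cre also marked B cells, T cells and dendritic cells, and Clec4f-cre a minor population of B cells. All mice were on a C57Bl/6 background, were of either sex, were 6 to 8 weeks old and were compared with littermates. Per the study, Zeb2KO libraries other than that of microglia also hold macs that kept 1 copy of Zeb2. The 3′ counts of Zeb2 do not report on its deletion because the recombined allele keeps its 3′ end. With 1 library per group, the differences within a tissue have no replicate check and carry no p-value.

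The cells kept numbered 2830 to 6974 per library, with 8188727 to 42962191 UMIs per library and medians of 2220 to 9232.5 UMIs per cell. Levels are given as counts (UMIs) per 1000000 UMIs of the library (CPM), summed over kept cells. Because each UMI marks the 3′ end of 1 captured molecule, levels were not divided by gene length. The 95% Poisson interval of a member at 20 CPM or more spanned 2.35% of its value to each side in the median and 13.7% at most, and covers counting error only. For each labelled cell type, 1 listed marker is given here: P2ry12 reached 4405 CPM in WT microglia, Clec4f 6111 CPM in WT KCs, Chil3 5761 CPM in WT AMs, Spic 1621 CPM in WT SMs and Cd74 24200 CPM in WT CMs. Each was lower in the WT libraries of the other tissues. Other listed markers did not all peak in their own tissue. Among CM markers, Cx3cr1 was at 581.4 CPM in WT CMs and 2923 in WT microglia. Mrc1 (661.4 CPM) and Cd163 (82.1) were higher in WT SMs (1668 and 385.7). The AM marker Marco (186.1 CPM in WT AMs) and the SM marker Cd5l (674.3 in WT SMs) were higher in WT KCs (343.4 and 5275). AMs were apart in C1qa, a gene of complement component C1q, which was at 0.0729 CPM in WT AMs and at 2372 CPM or more in the other WT libraries. KCs and AMs were sequenced on another instrument than microglia, CMs and SMs, so instrument and tissue cannot be told apart between these sets.

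The 5 promoters below are shown because they hold the motif CACGTG and belong to members on which the results turn. Ctsl, Ctsf, Lgmn and Gla passed 2-fold between genotypes in at least 1 tissue. Smpd1 and Cd68 did so too, but their windows hold no CACGTG and are not shown. Ctsd was the most abundant member in WT microglia and had a wide range of levels over the WT tissues. Each window runs from 250 bases before to 50 bases after an annotated RefSeq start (GRCm38.p6), is written 5′ to 3′ on the gene's own strand and so ends within the first exon. Capitals mark the motif, which reads the same on both strands.
Ctsl: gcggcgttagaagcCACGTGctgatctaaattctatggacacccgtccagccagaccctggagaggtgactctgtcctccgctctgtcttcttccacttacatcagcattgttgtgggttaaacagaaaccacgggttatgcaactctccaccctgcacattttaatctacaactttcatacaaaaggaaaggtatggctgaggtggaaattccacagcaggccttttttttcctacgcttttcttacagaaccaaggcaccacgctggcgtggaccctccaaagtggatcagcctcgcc
Ctsf: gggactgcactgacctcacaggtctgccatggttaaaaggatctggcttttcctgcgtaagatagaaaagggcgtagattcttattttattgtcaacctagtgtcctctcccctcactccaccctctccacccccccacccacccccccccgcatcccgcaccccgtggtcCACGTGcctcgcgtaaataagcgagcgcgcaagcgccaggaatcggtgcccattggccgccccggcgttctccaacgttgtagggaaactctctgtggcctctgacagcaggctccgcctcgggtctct
Lgmn: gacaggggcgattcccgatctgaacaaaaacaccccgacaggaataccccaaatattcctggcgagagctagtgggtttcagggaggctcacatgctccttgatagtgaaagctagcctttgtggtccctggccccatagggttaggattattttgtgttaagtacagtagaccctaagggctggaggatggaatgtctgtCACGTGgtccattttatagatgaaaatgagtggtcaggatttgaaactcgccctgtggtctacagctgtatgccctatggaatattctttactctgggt
Gla: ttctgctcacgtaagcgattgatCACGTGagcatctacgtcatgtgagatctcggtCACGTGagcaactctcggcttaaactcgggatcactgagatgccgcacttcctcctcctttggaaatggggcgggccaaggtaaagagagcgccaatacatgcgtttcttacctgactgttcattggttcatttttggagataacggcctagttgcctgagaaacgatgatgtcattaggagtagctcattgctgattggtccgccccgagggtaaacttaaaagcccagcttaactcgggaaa
Ctsd: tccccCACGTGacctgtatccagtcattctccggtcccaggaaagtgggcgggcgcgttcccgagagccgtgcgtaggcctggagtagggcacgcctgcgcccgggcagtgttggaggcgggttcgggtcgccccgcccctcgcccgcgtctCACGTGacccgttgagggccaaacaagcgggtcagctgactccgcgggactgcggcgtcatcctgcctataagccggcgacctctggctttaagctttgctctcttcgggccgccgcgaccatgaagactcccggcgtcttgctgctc
The windows lie at chr13:64370471-64370770 (minus strand), chr19:4854915-4855214 (plus strand), chr12:102439043-102439342 (minus strand, 1 of 2 starts of Lgmn), chrX:134600956-134601255 (minus strand) and chr7:142387778-142388077 (minus strand), in the order printed. The motif began 236 bases before the start in Ctsl, 79 in Ctsf, 49 in Lgmn, 227 and 194 in Gla, and 245 and 98 in Ctsd. In Lgmn, Gla and Ctsd it was preceded by T on at least 1 strand, giving TCACGTG, whereas in Ctsl and Ctsf it was not.

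A CACGTG motif was found in 12 of the 32 members with a promoter in the table (37.5%), against 8.093% of all 27025 genes. The 12 were Ctsa, Ctsd, Ctsf, Ctsl, Lamp1, Lgmn, Gaa, Gla, Glb1, Mcoln1, Atp6v0d1 and Atp6v1a, and so came from 5 of the 6 roles. The longer TCACGTG, every site of which is also a CACGTG site, was in 10 of 32 members (31.25%) against 4.292% of all genes. Members without a match lacked these letters in a window of 300 bases, which does not say that they have no site elsewhere. CAGGTG, searched on both strands, a motif that Zeb factors are known to bind, was in 5 of 32 members, Ctsa, Gaa, Manba, Tpp1 and Atp6v0d1 (15.62%), against 22.56% of all genes. Of the 7 members past 2-fold in any tissue, 6 had a promoter in the table, and 4 of these held CACGTG, 2 held TCACGTG and 0 held CAGGTG. Among the remaining 26 members, 8 held CACGTG, 8 held TCACGTG and 5 held CAGGTG. The 16 of 61 genes (26.23%) with CACGTG among other lysosome genes stood between the members and all genes. These counts are descriptions of sequence, not of binding.

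In WT macs the 38 genes together held the largest share of UMIs in microglia and the smallest in AMs. The share was 4.465% in microglia, 2.978% in KCs, 2.708% in SMs, 2.376% in CMs and 1.836% in AMs. The second WT KC library, from Nr1h3fl/fl mice, was at 2.83%, 4.97% below the first, which is the only measure here of how far libraries of one kind differ. SMs lay closer to this library than both KC libraries lay to each other, while microglia and AMs lay far from that range. A few genes carried these shares: the 3 most abundant members made up 54.2% of member UMIs in WT microglia (Ctsd, Ctss and Lgmn), 57.48% in SMs (Psap, Ctsb and Ctsd), 45.43% in AMs (Psap, Ctsd and Ctss), 38.48% in KCs (Ctsb, Ctss and Lgmn) and 37.33% in CMs (Ctsb, Psap and Ctss).

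**Figure D1:**
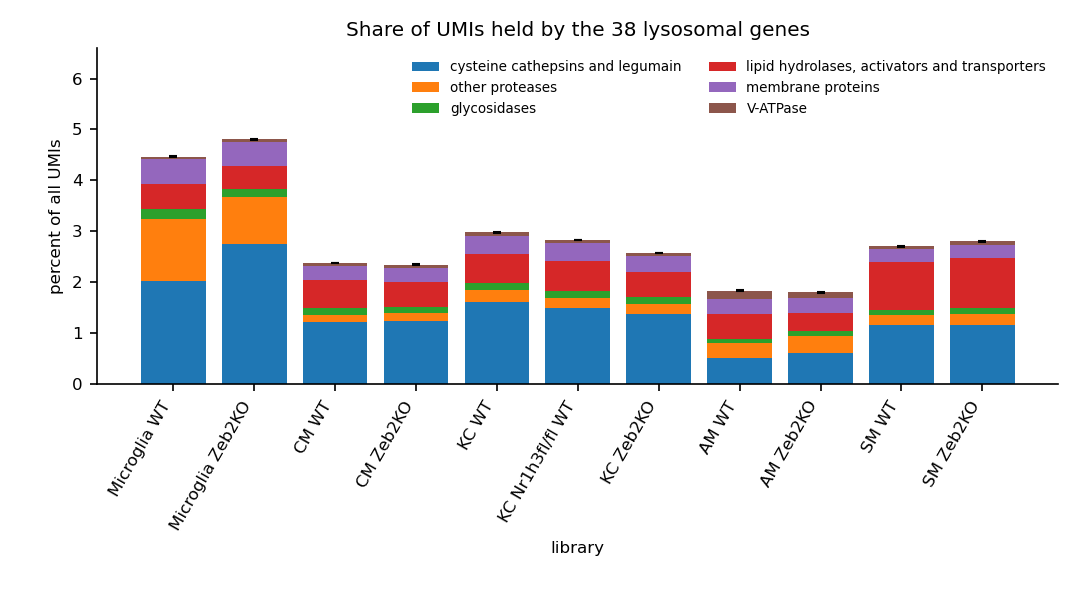
Share of all UMIs (percent, vertical axis) held by the 38 lysosomal genes in each of the 11 libraries, stacked by the 6 roles, with black bars for the 95% binomial interval of the total (counting error only). Both microglia libraries stand highest (4.465% and 4.807%) and both AM libraries lowest (1.836% and 1.8%), and the V-ATPase part is widest in AMs (0.1603% in WT).

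The roles were distributed unequally over the tissues. Cysteine cathepsins and legumain held 2.03% of UMIs in WT microglia, 1.614% in KCs, 1.218% in CMs, 1.157% in SMs and 0.5049% in AMs. The V-ATPase genes showed another order, at 0.1603% in WT AMs and 0.05427% to 0.06296% in the other 4 tissues (0.06751% in the Nr1h3fl/fl WT KCs). Lipid hydrolases and activators peaked in SMs, at 0.945%, against 0.4806% to 0.5554% in the other Zeb2fl/fl WT libraries and 0.607% in the Nr1h3fl/fl WT KCs. Most of the share in SMs was that of Psap, at 7175 CPM, and no other gene of this role was highest in SMs. Of the 38 members, 17 were highest in WT microglia, 8 in AMs, 7 in KCs, 5 in SMs and 1, Gla, in CMs. AMs were also the lowest tissue for 14 members. The 8 members highest in AMs were Ctsk, Npc1, Manba, Mcoln1 and all V-ATPase genes but Atp6ap1. The tissue with the highest level was the same in WT and Zeb2KO for 27 of the 38 members.

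Tissue differences were tested in a single fit over the 5 WT and 5 Zeb2KO libraries, in which both libraries of a tissue served as its replicates. By edgeR's quasi-likelihood test with Benjamini-Hochberg adjustment over 14017 genes, 30 of 38 members differed between tissues, against 80.4% of all genes, so members were called about as often as genes at large. The 8 members not called were Atp6ap1, Gaa, Grn, Lamp1, Lamp2, Ppt1, Smpd1 and Tpp1. DESeq2 called 35 of 38 members, against 71.5% of all genes. A range of at least 3 on the log2(CPM + 1) scale over the 5 WT libraries was seen in 6 of 38 members, against 22.6% of genes: Ctsb, Ctsd, Ctsf, Ctsk, Lgmn and Atp6v0d2. The median range of the members was 1.72, and the narrowest, 0.523, was that of Atp6ap1, an accessory subunit of the V-ATPase.

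**Figure D2:**
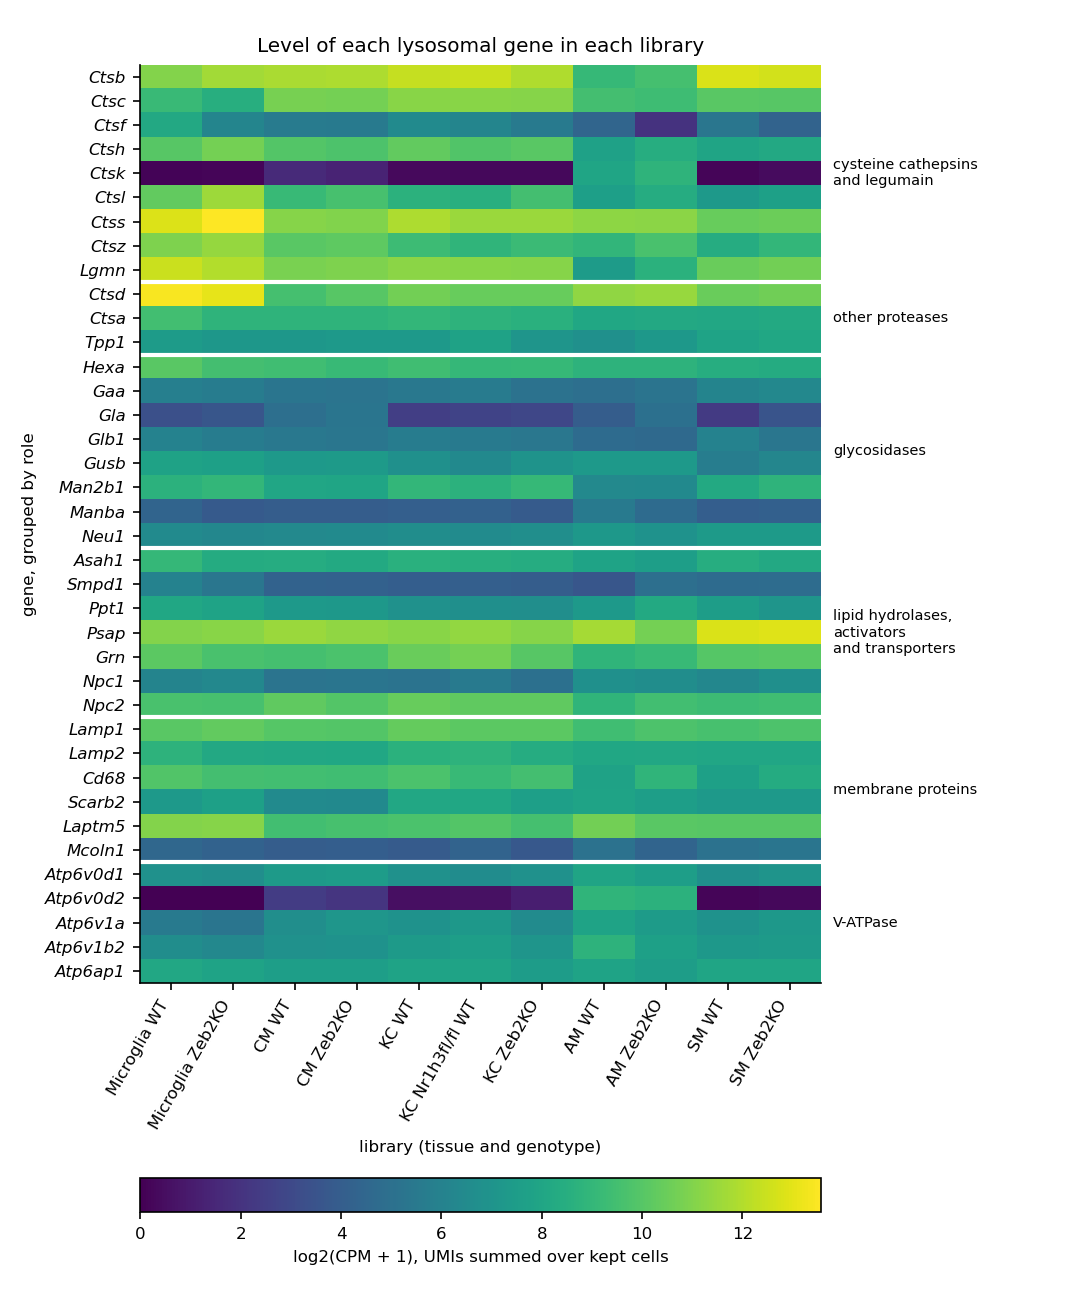
Level of each of the 38 lysosomal genes (rows, grouped by role) in each of the 11 libraries (columns), as log2(CPM + 1) on the colour scale. Ctsk and Atp6v0d2 are bright in both AM libraries and dark in the other 9, whereas Lgmn is darkest in AMs and brightest in microglia.

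Ctsk, the collagen-degrading cathepsin best known from osteoclasts, was at 249 CPM in WT AMs and at 2.05 CPM in WT CMs, the next highest, a 122-fold difference. It was at 0.31 CPM or less in every library of microglia, KCs and SMs. Atp6v0d2, a V-ATPase subunit with restricted expression, was at 465 CPM in WT AMs, 110-fold above the 4.24 CPM of WT CMs. No UMI of it was seen in either microglia library, where 3 counts would correspond to 0.243 CPM in WT. Atp6v0d1, the other isoform of this subunit, had a narrower range, from 105 CPM in WT SMs to 241 CPM in WT AMs. The AM-restricted pair was AM-restricted in Zeb2KO as well, with Ctsk at 449 CPM and Atp6v0d2 at 412 CPM in Zeb2KO AMs and no more than 1.51 and 3.22 CPM in any other Zeb2KO library. These 2 genes had the highest F values for tissue among the members (299 and 297, edgeR, adjusted p in both under the threshold of 0.05).

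Among the broadly expressed proteases, the tissue with the highest level differed from gene to gene. Ctsd, the main aspartic protease of lysosomes, was at 11190 CPM in WT microglia, 2549 in AMs, 1616 in KCs, 1415 in SMs and 758 in CMs. Microglia were thus 4.39-fold above the next tissue. Ctsb, an abundant cysteine protease, was at 6974 CPM in WT SMs, 5272 in KCs, 3690 in CMs, 2150 in microglia and 536 in AMs, a 13-fold span with AMs as the low end. Lgmn, the asparaginyl endopeptidase that processes other cathepsins, was at 5657 CPM in WT microglia, 2347 in KCs, 1830 in CMs, 1399 in SMs and 176 in AMs, a 32.2-fold span. In AMs, therefore, Ctsb and Lgmn were at their lowest while Ctsd was the second highest of the 5 tissues.

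In the other roles the most abundant members varied less. Psap, the precursor of the saposins that present sphingolipids to hydrolases, was at 7175 CPM in WT SMs and 3354 CPM in WT AMs, against 2970, 2254 and 2115 CPM in WT CMs, KCs and microglia. Hexa, the alpha subunit of beta-hexosaminidase, ranged from 346 CPM in WT SMs to 1102 CPM in WT microglia. Laptm5, a transmembrane protein of haematopoietic lysosomes, ranged from 710 CPM in WT CMs to 2134 CPM in WT microglia. Atp6ap1 stood between 195 CPM in WT CMs and 280 CPM in WT microglia.

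Over the 5 tissue pairs, no member passed the test for a difference between Zeb2KO and WT by edgeR with tissue as a block. All 38 members were among the 14017 genes tested, of which 0 were called at an adjusted p under 0.05 (0.0%). At an unadjusted p under 0.05, 3 of 38 members, Ctsl, Ctsf and Gla, were counted, against 11.4% of all genes, which is no more often than genes at large. DESeq2 on the same libraries called Ctsl and Ctsf, 2 of 38 members, against 2.68% of all genes, with adjusted p of 0.001735 and 0.009976. The 2 tools therefore differed on these members, and the direction and size were alike in both. Set against the genes measured at 20 CPM or more in all 5 tissues, 6 of 32 members had log2 ratios of the same sign throughout, against 12.4% of genes: Ctsl was above 0, and Ctsc, Ctsf, Glb1, Asah1 and Atp6ap1 were below 0. With every ratio at least 0.3 in size, Ctsl alone remained, 1 of 32 members, against 0.479% of genes.

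**Figure D3:**
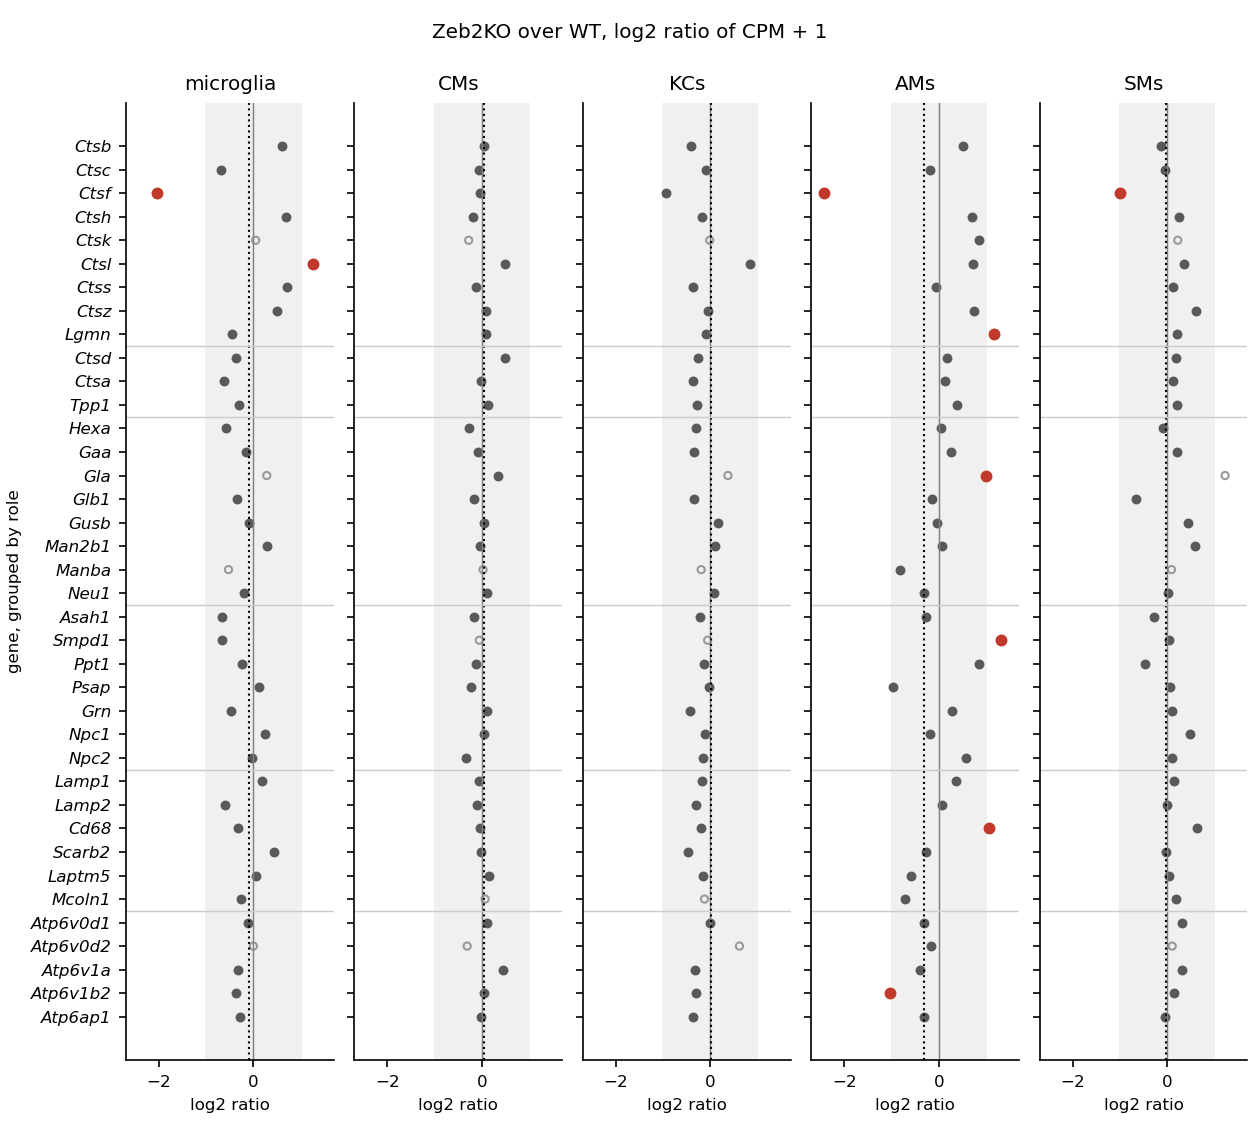
Log2 ratio of CPM + 1, Zeb2KO over WT (horizontal axis), for each of the 38 lysosomal genes in each tissue. Red points are past 2-fold, grey points within it (shaded), open points under 20 CPM in both libraries and therefore not counted, and the dotted line is the median of all genes considered (at -0.31 in AMs). Red points number 6 in AMs, 2 in microglia, 1 in SMs and 0 in both KCs and CMs.

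Ctsl, a broadly acting cysteine endopeptidase, had a higher level in the Zeb2KO library of every tissue, as had Gla, which lay under 20 CPM in 3 of the tissues. It was at 1266 CPM in WT and 3056 CPM in Zeb2KO microglia, 412.5 and 737 in KCs, 564 and 794 in CMs, 161 and 207 in SMs, and 202 and 337 in AMs. Every Zeb2KO level was above its WT counterpart, and the Nr1h3fl/fl WT KCs, at 369 CPM, lay with the other WT KCs. The log2 ratio was 1.27 in microglia, 0.84 in KCs, 0.73 in AMs, 0.49 in CMs and 0.36 in SMs. Over the 5 pairs edgeR gave a log2 fold change of 0.80 ± 0.17 (SE) with an adjusted p of 0.2295. Only the microglia ratio passed 2-fold. The Ctsl locus overlaps another annotated gene on the same strand, Gm49230, and reads shared by overlapping genes can be lost in counting.

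Ctsf, a cathepsin of the papain family of low abundance in macs, was lower in Zeb2KO macs of all tissues but with almost no difference in CMs. It was at 292 CPM in WT and 70.2 CPM in Zeb2KO microglia, 20.5 and 3.004 in AMs, 39.7 and 19.2 in SMs, 89.0 and 46.0 in KCs, and 48.5 and 46.9 in CMs. The log2 ratio was -2.42 in AMs, -2.04 in microglia, -1.01 in SMs, -0.94 in KCs and -0.05 in CMs, and so passed 2-fold in microglia, AMs and SMs. Over the 5 pairs edgeR gave -1.30 ± 0.34 (SE) with an adjusted p of 0.2816. Against the Nr1h3fl/fl WT KCs, at 70.4 CPM, the KC ratio was -0.60. In SMs the ratio lay close to the 2-fold limit and fell inside it with TMM factors, where it was -0.982.

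**Figure D4:**
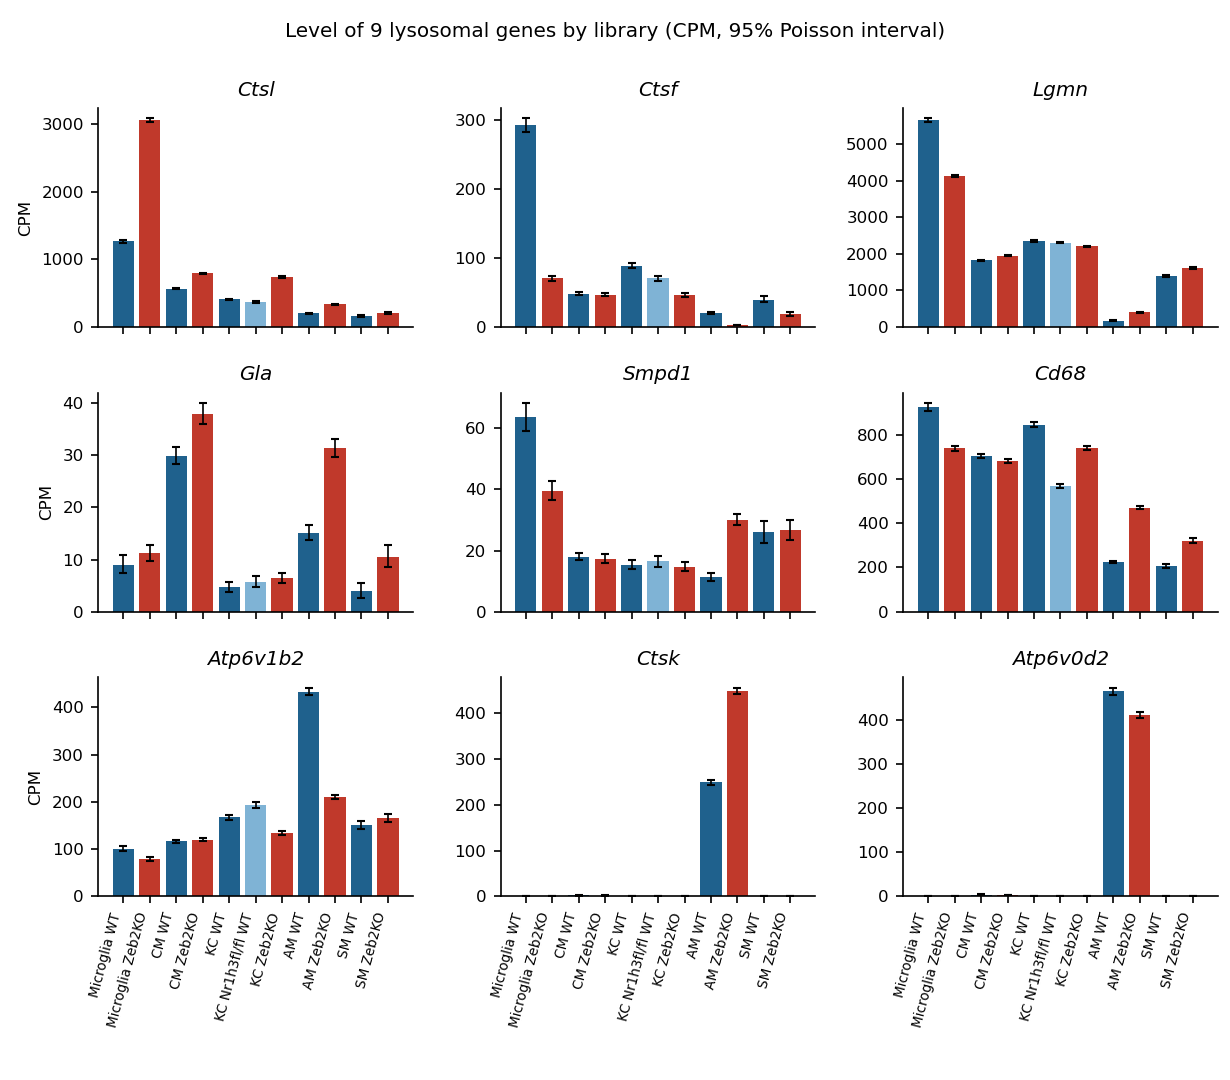
Level (CPM, vertical axis from 0, scaled separately) of 9 lysosomal genes in the 11 libraries, with WT in dark blue, Nr1h3fl/fl WT in light blue, Zeb2KO in red and 95% Poisson intervals as bars. Ctsl is higher and Ctsf lower in the Zeb2KO library of each tissue, although in CMs the intervals of Ctsf overlap. Ctsk and Atp6v0d2 are seen almost only in AMs.

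In microglia, 2 of 34 members measured at 20 CPM or more passed 2-fold, against 8.34% of genes. Ctsl was the 1 member higher, against 4.27% of genes, and Ctsf the 1 member lower, against 4.07%. The cysteine cathepsins and legumain split: Ctsb, Ctsh, Ctsl, Ctss and Ctsz were above 0, whereas Ctsc, Ctsf and legumain (Lgmn) were below it. Ctss, which trims the MHC class II invariant chain, was at 7357 CPM in WT and 12090 CPM in Zeb2KO (log2 ratio 0.72), and Ctsb at 2150 and 3289 CPM (0.61). Lgmn was at 5657 and 4121 CPM (-0.46), and Ctsd at 11190 and 8625 CPM (-0.38). The joint share of the 38 genes was 7.66% higher in Zeb2KO microglia, although 23 of 34 members were below 0 and the median log2 ratio of the members was -0.26, against -0.09 for all genes. Without Ctsb, Ctss and Psap, the 3 members with the most UMIs over all libraries, the share was 3.303% in WT and 3.04% in Zeb2KO, so the direction turned. All 3 other proteases, 5 of 6 glycosidases and 4 of 4 V-ATPase genes were below 0, and with TMM factors these counts were the same. Among V-ATPase subunits outside the 38 genes, 7 of 12 were above 0. The summed level of 5 microglial marker genes was 10500 CPM in WT and 7407 CPM in Zeb2KO, and its part in these ratios was not tested.

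In CMs, 0 of 33 members passed 2-fold, against 1.58% of genes. The members' median was -0.02, against 0.05 for all genes, and the ratios ran from -0.34 to 0.49. The largest in size were those of Ctsl (0.49), Ctsd (0.48; 758 and 1059 CPM in WT and Zeb2KO), Atp6v1a, a catalytic V-ATPase subunit (0.44), and Npc2, which binds cholesterol in the lysosome (-0.34; 1232 and 975 CPM). The joint share was 2.376% in WT and 2.345% in Zeb2KO. Without Ctsb, Ctss and Psap, it was 1.489% in WT and 1.511% in Zeb2KO.

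In KCs, 0 of 32 members passed 2-fold, against 4.47% of genes, yet most members were somewhat lower in Zeb2KO. Of 32 members, 28 were below 0, with a median of -0.21, against 0.02 for all genes. The 4 members above 0 were Ctsl, Gusb, Man2b1 and Neu1, of which the last 3 are glycosidases. Ctsb was at 5272 CPM in WT and 3946 CPM in Zeb2KO and Grn, the progranulin precursor, at 1403 and 1039. Ctss was at 3842 and 2993 CPM, but the Nr1h3fl/fl WT library was at 2907 CPM, so its log2 ratio of -0.36 became 0.04 against that library. The joint share was 13.6% lower in Zeb2KO. With the Nr1h3fl/fl WT library in place of the first, 0 of 32 members passed 2-fold, against 8.16% of genes, 20 of 32 were below 0 and the median was -0.10, against -0.05 for all genes. Between the 2 WT libraries themselves, 0 of 32 members passed 2-fold, against 1.39% of genes, and the members' median was -0.10, against 0.09. The lower levels in Zeb2KO KCs thus depended in size, and for some members in direction, on which WT library was used. The summed level of 5 KC marker genes was 15970 CPM in WT and 7501 CPM in Zeb2KO, and its part in the difference was not tested.

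In AMs, 6 of 38 members passed 2-fold, against 11.7% of genes. Lgmn, Gla, Smpd1 and Cd68 were higher (4 of 38, against 4.35% of genes) and Ctsf and Atp6v1b2 lower (2 of 38, against 7.33%). The median log2 ratio of all genes was -0.31 in this tissue, against 0.06 for the members, and 28 of 38 members lay above the median of all genes. With TMM factors, which move the median of all genes to -0.02, 8 members were higher (Ctsk, Ctsl, Ctsz, Lgmn, Gla, Smpd1, Ppt1 and Cd68) and 0 lower. Over all genes that scaling changed the split from 253 higher and 426 lower to 371 higher and 199 lower. Ctsf was then under 20 CPM in both libraries, and Atp6v1b2 was at -0.77.

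Lgmn was at 176 CPM in WT and 399 CPM in Zeb2KO AMs (log2 ratio 1.18), which was still below every library of the other tissues. Cd68, a heavily glycosylated membrane protein used as a mac marker, was at 224 and 470 CPM (1.07), whereas its level was lower in Zeb2KO in microglia (926 and 738 CPM), CMs (704 and 681) and, against Zeb2fl/fl WT, in KCs (844 and 740). Its level was also higher in Zeb2KO SMs (log2 ratio 0.64). In the Nr1h3fl/fl WT KCs it was at 568 CPM, below the level in Zeb2KO KCs. Smpd1, acid sphingomyelinase, was at 11.4 and 29.99 CPM in AMs (1.32) and at 63.6 and 39.5 CPM in microglia (-0.67). It was at 14.7 to 26.6 CPM in all libraries of CMs, KCs and SMs. Gla, alpha-galactosidase A, was at 15.1 and 31.4 CPM in AMs (1.005), 29.9 and 37.9 in CMs, and 3.91 and 10.5 in SMs. Its ratio was above 0 in all 5 tissues, but in microglia, KCs and SMs both libraries were under 20 CPM.

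The V-ATPase genes, most abundant in AMs, had a median log2 ratio of -0.32 in this tissue, close to the -0.31 of all genes, and -0.05 against -0.02 with TMM factors. Atp6v1b2, which encodes a subunit of the catalytic V1 sector, was at 433 CPM in WT and 210 CPM in Zeb2KO AMs (-1.04), and at 78.3 to 193 CPM in the other 9 libraries. Atp6v1a was at 231 and 174 CPM (-0.40) and Atp6v0d1 at 241 and 193 CPM (-0.32). All 5 V-ATPase genes were below 0, and 4 of 5 with TMM factors, with which Atp6v0d2 was above 0. Psap was at 3354 and 1718 CPM (-0.96) and Laptm5 at 1609 and 1073 CPM (-0.58). Cysteine cathepsins and legumain were above 0 in 6 of 9 cases, and in 8 of 9 with TMM factors. The joint share was 1.836% in WT and 1.8% in Zeb2KO. In CPM, gains and losses of single members thus nearly offset each other. Without Ctsb, Ctss and Psap, the share was 1.203% in WT and 1.319% in Zeb2KO, so the direction turned.

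Several genes listed as markers of other cell types were also higher in Zeb2KO AMs, which had been sorted as CD11c+SiglecF+F4/80+CD64+CD45+ cells. Small clusters with markers of NK cells and of endothelial cells were found in this sort and were left out. Epcam is also a surface marker by which the study told apart its AMs from Itgax-cre mice. The 6 neutrophil markers summed to 23.0 CPM in WT and 23560 CPM in Zeb2KO, of which S100a8 and S100a9 made up 14190 and 9361 CPM, while Retnlg, Ly6g, Camp and Mpo were each at or below 0.322 CPM. Of the 5 epithelial markers, Epcam was at 24.0 and 346 CPM, Krt8 at 0.255 and 242 CPM and Krt19 at 548 and 484 CPM. Krt18 was at 0.109 and 38.8 CPM and Cdh1 at 42.45 and 74.82 CPM. A cluster led by C1qa, C1qb and C1qc held 249 Zeb2KO cells (3.98%) and 5 WT cells (0.0717%). Without it 5 of 38 members passed 2-fold, Gla then being at 0.998, against 243 genes higher and 420 lower of 5804. The median number of UMIs per cell was 3587 in WT and 5682 in Zeb2KO AMs. The part of these genes and of depth in the members' ratios was not tested.

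In SMs, 1 of 34 members, Ctsf, passed 2-fold, against 3.17% of genes. The members' median was 0.12, against -0.02 for all genes, with 24 of 34 members above 0 (25 with TMM factors). The ratios other than that of Ctsf ran from -0.66 for Glb1, the lysosomal beta-galactosidase (62.4 and 39.2 CPM), to 0.64 for Cd68 (206 and 321 CPM). Ctsz, a carboxypeptidase of the cathepsin family, was at 332.5 and 507 CPM (0.61) and Man2b1, an alpha-mannosidase, at 303 and 453 CPM (0.58). Psap and Ctsb, the 2 most abundant members in this tissue, were at 7175 and 7519 CPM and at 6974 and 6374 CPM.

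Zeb2KO macs did not all fall into the same clusters as WT macs, and the members were therefore also measured in the Zeb2KO cells of clusters in which the share of Zeb2KO cells was at least 9 times that of WT cells. These clusters held 99.63% of Zeb2KO microglia, 91.04% of AMs, 77.95% of KCs, 76.07% of SMs and 21.19% of CMs. Clusters were built without the members. The joint share of the members in WT cells, in these Zeb2KO cells and in the other Zeb2KO cells was 2.978%, 2.608% and 2.454% in KCs, 1.836%, 1.826% and 1.534% in AMs, and 2.708%, 2.848% and 2.642% in SMs. In microglia only 12 Zeb2KO cells were left outside them.

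CMs stood apart in this respect. The joint share was 2.376% in WT CMs, 1.666% in the 817 Zeb2KO CMs of such clusters and 2.526% in the other 3038 Zeb2KO CMs. Over WT, 1 of 33 members, Ctsf, passed 2-fold in the former, against 10.6% of genes, and 0 of 33 in the latter, against 1.09%. Between both groups of Zeb2KO CMs, 5 of 33 members passed 2-fold, all lower in the clusters nearly absent from WT, against 10.8% of genes. These were Ctsb (1990 and 4258 CPM), Ctsc, which activates serine proteases of granules (926 and 1873), Ctsf (16.7 and 55.0), Grn (452 and 932) and Tpp1, a tripeptidyl peptidase (85.8 and 178). The median log2 ratio of the members between these groups was -0.59, against -0.16 for all genes. Most of these cells, 692, formed 1 cluster led by Hp, Mmp8, Ms4a1, Ltb and Lcn2, in which the joint share was 1.524%, with Ctsb at 1635, Ctsc at 741.7 and Ctsf at 10.84 CPM. The other 125 cells formed a cluster led by Iigp1, Cxcl9 and Gbp2, with a joint share of 2.532%, Ctsb at 4169, Ctsc at 2058 and Ctsf at 52.48 CPM, so the lower levels lay in the first cluster. The counts past 2-fold depended on this pooling. At a limit of 20 times in place of 9, only the first cluster remained. Over WT, 1 of 33 members was then higher and 7 were lower by 2-fold, against 14.7% of genes. At resolution 0.5, 1 was likewise higher and 7 lower, against 14.5%. Hp, Mmp8 and Lcn2 are granule genes and Ms4a1 is a B cell marker, although the study also uses Ms4a1 to mark Zeb2KO macs. The colon cells were sorted as positive for CD64 and F4/80 and negative for Ly6C, Ly6G and SiglecF. Clusters with markers of B cells, plasma cells and fibroblasts were still found in this sort and were left out. The part of other cell types in the lower share was not tested.

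**Figure D5:**
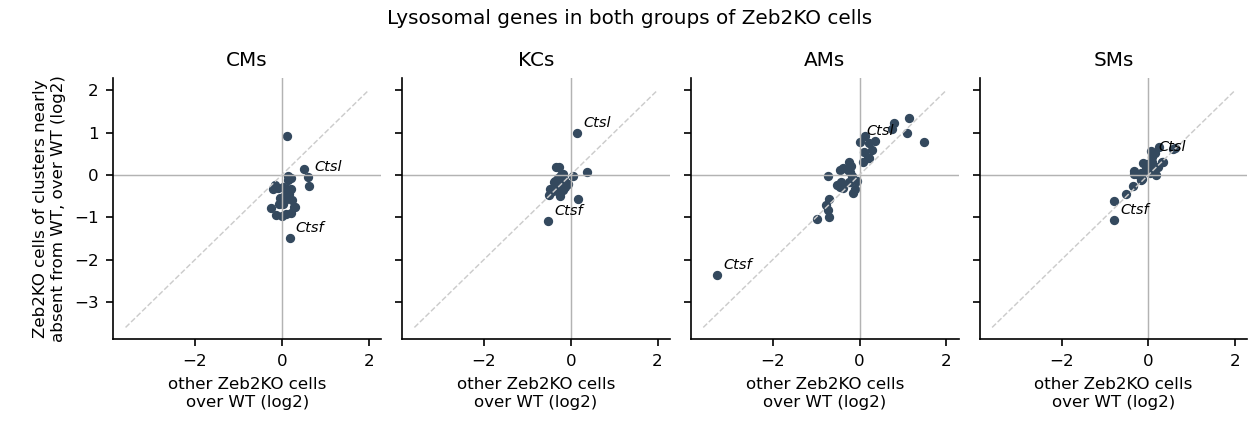
Log2 ratio over WT cells of each lysosomal gene at 20 CPM or more, in the Zeb2KO cells outside clusters nearly absent from WT (horizontal) and in those within them (vertical), for 4 tissues, with the dashed line marking equal values. In CMs nearly all points lie below the dashed line, and in KCs Ctsl is near 1 within these clusters and near 0.15 outside them.

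Ctsl and Ctsf differed in how they followed these clusters. Ctsl was at 412.5 CPM in WT KCs, 820 in Zeb2KO KCs of clusters nearly absent from WT and 459 in the others, and at 202, 350 and 205 CPM in AMs. The clusters nearly absent from WT differed among themselves. In KCs Ctsl was at 988.1 CPM in the one led by Siglecf and Il1r2 (1897 Zeb2KO cells). It was at 420.6 in the one led by Cx3cr1 and Ccr2 (509), near the level of all WT KCs. The 58 WT cells of that cluster were at 269.4 CPM. In AMs Ctsl was at 382.7 CPM in the one led by Ceacam10 and Krt8 (3297 cells) and 765.8 in the one led by C1qa (249). It was at 158.6 in the one led by Spag11b and Ddah1 (1712), below the level of all WT AMs. The 69 WT cells of that cluster were at 153.2 CPM. In CMs the order was reversed, with 564 CPM in WT, 542 in Zeb2KO cells of such clusters and 860 in the others. Ctsf was below its WT level in both groups of Zeb2KO cells in KCs (89.0, 41.3 and 61.6 CPM), AMs (20.5, 3.18 and 1.20) and SMs (39.7, 18.4 and 22.7). In CMs it was at 48.5 CPM in WT, 16.7 in the clusters nearly absent from WT and 55.0 in the others. Single clusters among the others also had low levels, such as one led by Ear2 and Ccr2, at 22.27 CPM in WT and 11.63 in Zeb2KO.

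In 21 clusters with at least 50 cells of each genotype (9 of CMs, 6 of KCs, 3 of AMs and 3 of SMs), cells of like kind could be set side by side. For SMs and CMs, the study presumes that Zeb2KO cells clustering with or near WT cells kept 1 copy of Zeb2. Deletion in single cells was not measured here. The KC cluster led by Cx3cr1 and Ccr2 and the AM cluster led by Spag11b and Ddah1 were also among those nearly absent from WT. Ctsl was higher in Zeb2KO cells in 20 of the 21, and was the 1 member of 31 with the same sign in at least 20, against 0.78% of genes. The exception was a CM cluster led by Lyve1, at 859 CPM in WT and 841 CPM in Zeb2KO cells, and in the 3 AM clusters the ratio was at most 0.11. Ctsf reached 20 CPM in 18 of the clusters and was lower in Zeb2KO cells in 11 and higher in 7. It was lower in the 1 AM and 2 SM clusters among them, ranged from -0.88 to 0.58 in CM clusters and from -0.61 to 0.61 in KC clusters. Clusters of 1 library are not replicates of it, so these counts describe how widely a difference was spread over cells.

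Within a library, the joint share also differed between clusters. It ran from 4.147% to 5.869% over the clusters of WT microglia, from 1.742% to 3.141% in WT KCs, from 1.918% to 3.077% in WT SMs, from 1.992% to 2.703% in WT CMs and from 1.544% to 1.924% in WT AMs. Every cluster of WT microglia was above every cluster of the other WT libraries. The lowest cluster was the proliferating one in WT AMs and CMs, led by genes such as Ube2c and Top2a. Another WT CM cluster, led by Ear2 and Ccr2, was also at 1.992%. In WT KCs the lowest was one of 69 cells led by Alox15 and Prg4. In WT SMs it was one led by Fcer2a, Tnfrsf13c and Cd72, which are known from B cells, and it was kept in the libraries, with 222 WT cells. The clusters left out of the libraries as B cells gave 18510 CPM of member UMIs against 29780 CPM in kept KCs and 5059 CPM against 27080 CPM in kept SMs.

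Other genes of the lysosome were examined in 6 lists: 22 hydrolases and activators, 16 genes of membrane and transport, 13 other V-ATPase subunits, 9 sorting genes, 16 genes of the MiT/TFE factors and mTORC1 on the lysosome, and 3 cystatins, which inhibit cathepsins. By edgeR over the 5 pairs, 0 genes of any list were called at an adjusted p under 0.05. At an unadjusted p under 0.05, 3 hydrolases, 5 V-ATPase subunits, 1 gene of the MiT/TFE and mTORC1 list and 1 cystatin were counted, 10 of 79 genes against the 11.4% of all genes given above. DESeq2 called 4 of 79, Arsb, Atp6v0a1, Atp6v1g1 and Lamtor4, against 2.68% of all genes. In single tissues, 4 of 63 genes measured at 20 CPM or more passed 2-fold in microglia (6.35%, against 8.34% of all genes), 4 of 63 in AMs (6.35%, against 11.7%), 1 of 57 in KCs (1.75%, against 4.47%), 1 of 70 in SMs (1.43%, against 3.17%) and 0 of 59 in CMs (against 1.58%). In each tissue this was a lower share than that of all genes. The cystatin Cst7 was at 11.4 CPM in WT and 185 CPM in Zeb2KO microglia (log2 ratio 3.90) and at 3.39 CPM or less in the other libraries. Gm2a, the activator of ganglioside breakdown by beta-hexosaminidase, was at 149 and 440.5 CPM in microglia (1.56).

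Cd63, a tetraspanin of late endosomes and lysosomes, was at 565 and 116 CPM in WT and Zeb2KO microglia (-2.27) and at 54.0 and 1271 CPM in AMs (4.53), opposite directions in these tissues. Cst3, the secreted cystatin C, was at 681 and 1786 CPM in AMs (1.39), and Cstb, a cytosolic cystatin, at 158 and 408 CPM in SMs (1.36). Atp6v0a1, a membrane-sector V-ATPase subunit, was at 15.01 and 37.7 CPM in KCs (1.27) and above 0 in every tissue. The second WT KC library held it at 26.5 CPM, which leaves a ratio of 0.49. The other 3 were Ids in AMs (-1.36), Ctns in AMs (-1.04) and Sort1 in microglia (-1.06). The 12 other V-ATPase subunits measured in SMs were all above 0, with a median of 0.38 against -0.02 for all genes. In AMs 6 of 12 were above 0 and 9 of 12 above the median of all genes, with a median of 0.04 against -0.31 for all genes. In CMs 11 of 12 were above 0 (median 0.14, against 0.05 for all genes). The count was 7 of 12 in microglia (0.03, against -0.09) and 5 of 12 in KCs (-0.02, against 0.02).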

How the data were processed

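Single-cell RNA-seq of sorted macs was analysed from the 11 deposited count tables of raw UMI counts per gene and cell, which the authors made with Cell Ranger on mm10, 1 table per library. Barcodes beyond 3 median absolute deviations in UMIs, genes or mitochondrial share were removed (4.664% to 9.217% per library). The cells of each tissue were clustered (scanpy 1.11.5, Leiden at resolution 0.8, 2000 variable genes without the members, 30 components), and clusters that were high in markers of another cell type and low in mac markers were left out (up to 22.11% of a library). Some kept clusters were led by genes of other cells (Fcer2a and Cd72 or S100a8 and Camp in SMs, Cps1 in KCs), and the wider removal tried as an alternative took out those led by Fcer2a and by Cps1. No doublet caller was run. Pairs of libraries shared at most 76 barcodes, and at most 1.447% of the barcodes of a library. Counts were summed over the 45189 kept cells of 51712 barcodes and given as CPM. Genes at 20 CPM or more in the higher library were counted as changed at 2-fold on the log2(CPM + 1) scale. In edgeR 4.0.16 (TMM, quasi-likelihood, tissue as block, Benjamini-Hochberg, threshold 0.05) the 10 libraries of the 5 pairs were fitted. DESeq2 1.42.0, other floors, a pseudocount of 5 CPM, other cell filters and leaving out each pair were alternatives. Nothing says that a library holds 1 or several animals. With 1 library per tissue and genotype, the p-values rest on how far the genotype difference varied between the tissues. They do not measure the spread between like libraries or animals. The edgeR and call steps were tested on simulated data.

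Members were described in full if past 2-fold in any tissue, if their WT range was at least 3, if most abundant in their role, or if of 1 sign in all tissues with every size at least 0.3. The members and lists were chosen with earlier results of these data known. Promoters came from RefSeq (GRCm38.p6) and matched 32 of 38 members by symbol, and Ctsb, Ctsh, Npc1, Asah1, Atp6v0d2 and Atp6v1b2 had no entry. Of the 38 loci (GENCODE M21), 5 overlap another gene on the same strand: Ctsd, Ctsl, Ctss, Glb1 and Manba.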

Additional observations from a re-analysis of the deposited data

Results flagged for a closer look

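The log2 ratio of Smpd1, Zeb2KO over WT, was 1.32 in AMs and -0.672 in microglia, so the only sample pair of each tissue moved opposite ways. This difference between tissues was not tested, since each rests on 1 library per genotype.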

How the results depend on the processing

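The fit over 5 pairs paired the libraries by tissue, since the labels give no replicate numbers. In every alternative in edgeR, including no tissue block and each leave-one-out, 0 members were called over these pairs, whereas DESeq2 called 2. Members called for tissue differences numbered 25 to 32 of 38 when a pair was left out. Without the SM pair they were 25, against 8810 of 13703 genes, and without the microglia pair 32, against 9667 of 13783. Calls over all genes were also fewest without the SM pair. At 1.5-fold, 11 of 34 members passed in microglia (17.8% of all genes did) and 0 of 33 in CMs (5.16%). In KCs 2 of 32 passed (11.1%), in AMs 14 of 38 (35.1%) and in SMs 4 of 34 (9.09%). With a floor of 50 CPM, 3 passed in AMs (against 164 genes higher and 252 lower of 3194) and 0 in SMs (69 and 30 of 3293). In AMs, Gla also fell inside 2-fold with a pseudocount of 5 CPM and with all barcodes (5 members passed in each). The 1 call in SMs became 0 with TMM factors, a pseudocount of 5 CPM, all barcodes or the filter on median absolute deviations alone, and 2 with no floor or a floor of 5 CPM, which add Gla. In this order, all genes numbered 138 higher and 47 lower of 5730, 120 and 42 of 6184, and 115 and 49 of 6152. The filter alone gave 111 and 48 of 6160, no floor 415 and 214 of 27998, and a floor of 5 CPM 295 and 128 of 9431. The members' median log2 ratio moved to 0.343 in AMs with TMM factors, to 0.34 in AMs and -0.126 in microglia when centred by transcript length, and to -0.0951 in KCs with the Nr1h3fl/fl WT library. Centring by length, the wider removal of clusters and the removal of the AM cluster led by C1qa were chosen after seeing the data. Except where an alternative adds genes, samples or scaling as named, the cause was not tested. Of 224 log2 ratios of named members under alternatives, 214 kept their side of 2-fold, 9 fell inside it and 1 passed it, and none changed sign while past it. Using all barcodes changed the joint share by -16.6% to 0.381%. With 1 library per group, depth bounds counting error and not the spread between mice.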
